A study of Homo sapiens with 4 samples.

Results

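The genes described here encode the machinery that cuts cellular proteins into peptides and displays them on HLA molecules, together with the stress-induced ligands MICA and MICB. A probe set was a member when the platform annotation gave it exactly 1 gene symbol and that symbol began with HLA-, PSMA, PSMB or PSME, or was B2M, TAP1, TAP2, TAPBP, TAPBPL, NLRC5, CIITA, CD74, ERAP1, ERAP2, MICA or MICB. This gave 190 of 49293 probe sets, belonging to 56 of 18132 genes. They were measured in SCC-15, an established line of human tongue squamous carcinoma cells, on 1-colour Affymetrix arrays. The mimic group comprised 2 arrays of cells transfected with a microRNA mimic, and the control group 2 arrays of cells transfected with the negative control miR-NC. The transfected RNA was used at 30 nM, 24 h after seeding, and cells were collected 36 h after transfection. The series title and design text named the mimic miR-762 and the sample labels miR-585-5p, so the group is called "mimic" throughout. Nothing stated that the arrays of a group came from separate cultures. The p-values therefore reflect how far these arrays scatter, and that scatter may be purely technical.

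The 2 named microRNAs have different seeds, the stretch of bases that pairs with target transcripts. They are shown because the sources do not settle which was transfected. The mature sequences are those of RefSeq (GRCh38.p14), 5′ to 3′, with the seed (bases 2 to 8) in capitals.
miR-762: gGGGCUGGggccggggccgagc
miR-585-5p: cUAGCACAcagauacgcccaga

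The proteasome is a barrel of stacked rings of alpha (PSMA) and beta (PSMB) subunits in which proteins are cut into peptides. Interferon exchanges its catalytic beta subunits for the immunoproteasome subunits PSMB8, PSMB9 and PSMB10 and adds the PSME1-PSME2 activator, also called PA28. Peptides are carried into the endoplasmic reticulum by the TAP1-TAP2 transporter, are loaded on HLA class I heavy chains paired with B2M, and are shown to CD8+ T cells, whereas MICA and MICB are bound by the activating receptor NKG2D on natural killer cells. Carcinoma cells are known to vary in both displays, which is why they are studied in tumour immunity.

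Most members that could be tested were slightly lower in the mimic arrays. Of the 56 genes, 47 had a probe set above the dim level (a mean log2 intensity over all arrays of 2.83, below which 30% of probe sets lay) and were tested. Of these, 12 fell, 1 rose and 34 missed the threshold (limma fitted over 14340 genes, 1 probe set per gene, Benjamini-Hochberg adjusted p under 0.05). This is 25.5% of the tested members lower and 2.13% higher, against 12.3% lower and 17.7% higher among all genes tested. The median difference, mimic minus control on the log2 scale, was -0.15 over the 47 members and -0.02 over all genes. The 2 groups of arrays did not overlap for 33 members, or 70.2%, against 70.4% of all genes. They lay apart with the mimic arrays lower for 30 members, or 63.8%, against 36.3% of all genes.

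**Figure D1:**
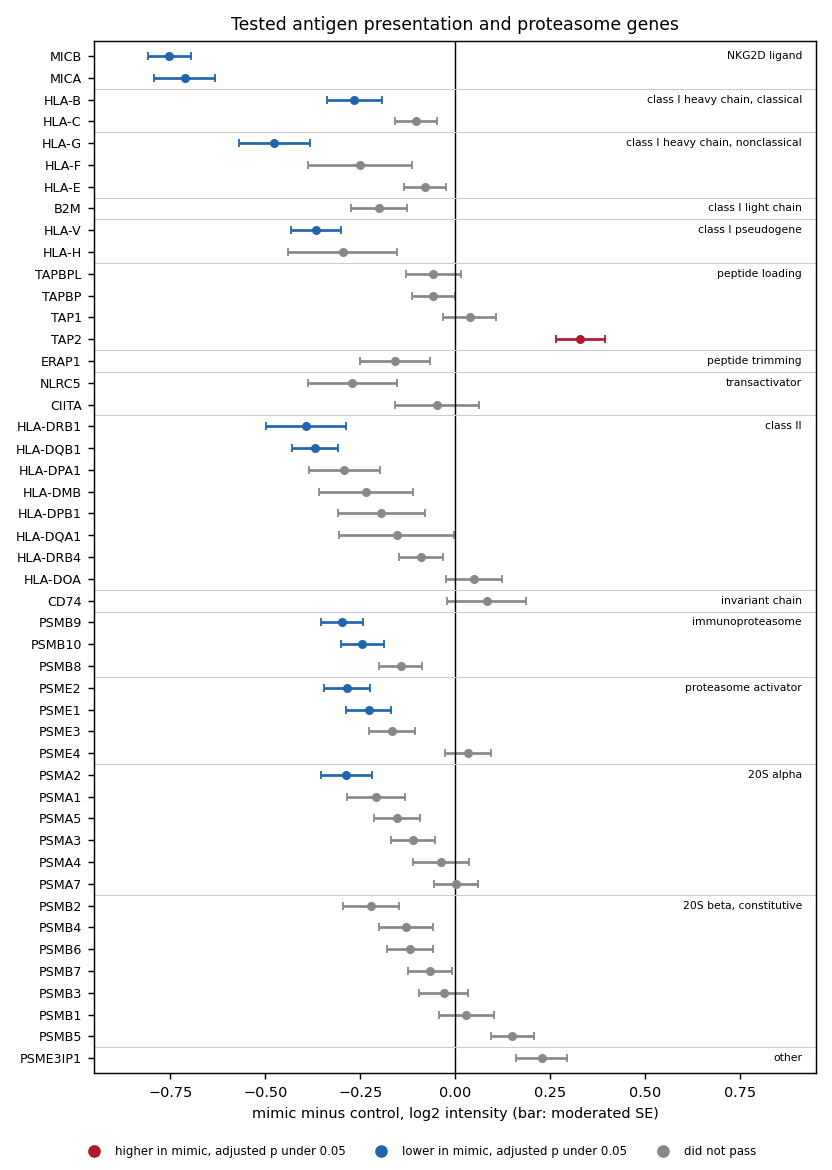
Difference in log2 intensity, mimic minus control, for the 47 tested genes (1 probe set per gene), ordered by role; bars are limma's moderated standard errors and colours mark genes past the threshold. MICB (-0.75) and MICA (-0.71) lie farthest to the left, and TAP2 (0.33) is the gene past the threshold on the right.

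At the level of single probe sets the counts were closer to the background. Of the 190, 137 were above the dim level, of which 17 fell and 6 rose in a fit over 31711 probe sets. That is 12.4% lower and 4.38% higher, against 7.95% lower and 14.5% higher over all probe sets of that fit. Of the 13 genes past the threshold, 10 had more than 1 tested probe set, and in all 10 every tested probe set had the same sign. Among all 34 tested members with more than 1 tested probe set, 24 had a single sign. The 10 were picked by 1 of their own probe sets, and the share over all genes was not computed. Probe sets of 1 gene share transcripts and arrays and are not replicates. After a further quantile normalization, there were 18 members lower and 1 higher, or 38.3% and 2.13%, against 18.3% and 14.4% of all genes. The same step turned the share of calls that were higher, over all genes, from 59.0% into 44.0%.

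The differences were small and rested on few arrays. No member gene passed with a change of 2-fold or more, against 2.06% of all genes higher and 0.195% lower by that size. Among probe sets 1 of 137 did, against 1.9% of all probe sets higher and 0.117% lower. The groups of arrays did not overlap for 93 of the 137 tested member probe sets, a share close to the 66.6% of all probe sets tested. With 1 array of a group left out, the lone array was assumed to vary like the other group. On leaving out mimic array 1 or mimic array 2, 0 of all 14340 genes passed in limma, members included, with 12 and 9 members lower at an unadjusted p under 0.05. On leaving out control array 1 or control array 2, MICB alone passed (adjusted p = 0.0464 and 0.0433), with 17 and 14 members lower at an unadjusted p under 0.05. Of all genes, 577 were then higher and 76 lower without control array 1, and 796 higher and 167 lower without control array 2.

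**Figure D2:**
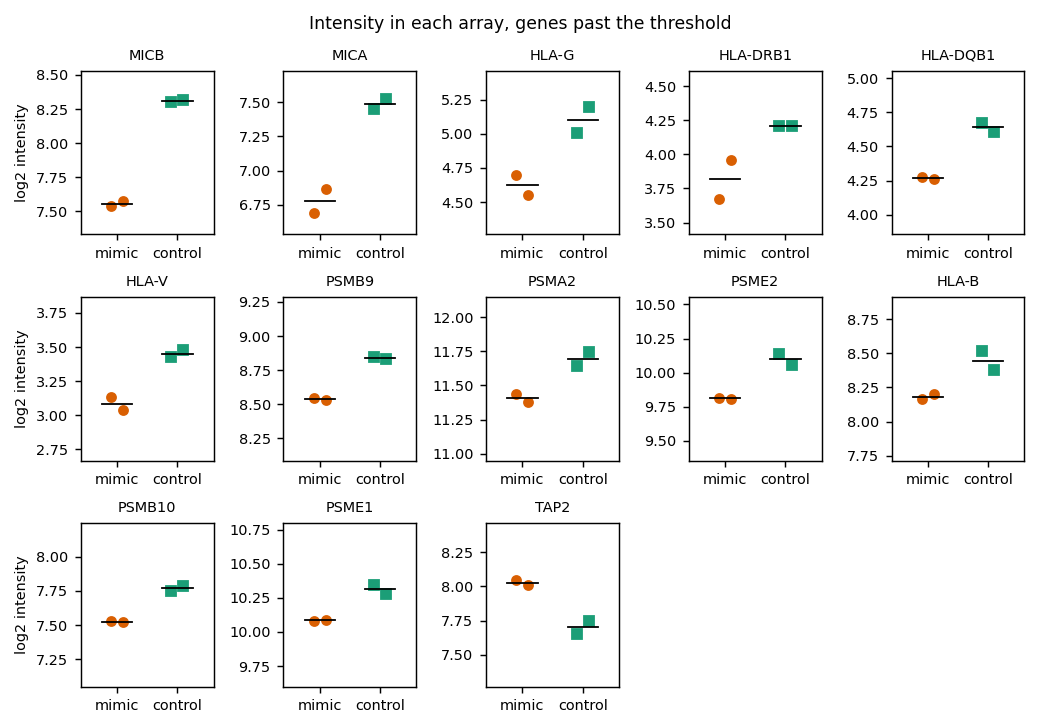
Log2 intensity of each array for the 13 genes past the threshold, with circles for mimic arrays, squares for control arrays and a line at each group's mean; every panel spans the same range of log2 units. The groups are apart in every panel, with the mimic arrays lower except for TAP2.

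The ligands of NKG2D, MICA and MICB, had the largest decreases of any member. MICB was at 7.54 and 7.57 in the mimic arrays, against 8.30 and 8.32 in the control arrays. It fell by 0.75 ± 0.057 on the log2 scale (SE, n = 2 arrays a group), 1.69-fold (limma adjusted p = 0.0021). The gap between groups was far wider than the gap between the arrays of a group.

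MICA was at 6.69 and 6.86 in the mimic arrays, against 7.45 and 7.52 in the control arrays. It fell by 0.71 ± 0.081, 1.64-fold (adjusted p = 0.0055). Its 3 probe sets all passed, with differences between -0.71 and -0.56. For MICB only 1 of 3 tested probe sets passed, and the others differed by -0.21 and -0.25. Probe sets whose names end in _s_at or _x_at can match several transcripts or related genes. Once these were left out, MICA had no probe set and MICB had a difference of -0.25 that did not pass (adjusted p = 0.103).

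Both genes lie on chromosome 6, and the 250 bases before their start sites were 85.0% identical over 246 aligned bases. The last 150 bases before each start are shown because the pair moved together (RefSeq, GRCh38.p14, plus strand, MICA at chr6:31403445-31403594 and MICB at chr6:31497995-31498144). Capitals mark the CCAAT box, read on either strand.
MICA: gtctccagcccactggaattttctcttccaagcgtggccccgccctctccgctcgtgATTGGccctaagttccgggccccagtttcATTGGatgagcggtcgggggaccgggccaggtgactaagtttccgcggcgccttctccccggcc
MICB: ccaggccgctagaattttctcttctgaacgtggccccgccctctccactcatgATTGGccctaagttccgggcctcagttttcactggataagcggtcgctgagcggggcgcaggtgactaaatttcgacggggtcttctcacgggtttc

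The box occurs 2 times in the MICA window and 1 time in the MICB window. CCAAT was present in 33.0% of the 250-base windows of 27305 genes. It was in 27 of the 43 member genes with a window and in 7 of the 11 that fell and had one. A match of letters is a description and not a binding site.

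Of the other genes for NKG2D ligands, ULBP3 and RAET1G rose. Of 6 genes of the ULBP and RAET1 family, 3 were above the dim level, of which 2 rose and 0 fell. ULBP3 was at 4.15 and 3.89 in the mimic arrays, against 3.05 and 3.22 in the control arrays, and rose by 0.89 ± 0.11 (adjusted p = 0.00707). RAET1G was at 5.07 and 5.02 in the mimic arrays, against 4.73 and 4.67 in the control arrays, and rose by 0.35. ULBP2 differed by 0.30 and did not pass (adjusted p = 0.166). Each of these rests on 1 tested probe set of low intensity that, without a detection call, cannot be told from background signal.

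Of the genes for HLA class I chains, HLA-B and HLA-G fell and the others did not pass. All 6 tested genes, HLA-B, HLA-C, HLA-E, HLA-F, HLA-G and B2M, had lower means in the mimic arrays and no overlap between groups, as had 36.3% of all genes. Their median difference was -0.23. With median centring 1 of the 6 passed.

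HLA-B, a classical heavy chain gene, was at 8.16 and 8.20 in the mimic arrays, against 8.52 and 8.38 in the control arrays. It fell by 0.27 ± 0.072, 1.20-fold (adjusted p = 0.0483), and was at -0.20 without control array 1. That call was lost in 10 of 14 alternative settings, and no HLA-B probe set passed in the fit over probe sets. HLA-C, the other classical gene tested, was at 9.40 and 9.39 in the mimic arrays, against 9.49 and 9.50 in the control arrays. Its difference of -0.10 did not pass (adjusted p = 0.212).

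HLA-G, a nonclassical gene best known from the placenta, was at 4.70 and 4.55 in the mimic arrays, against 5.01 and 5.20 in the control arrays. It fell by 0.48 ± 0.093, 1.39-fold (adjusted p = 0.0215). Its 4 tested probe sets differed by -0.50 to -0.17. All are of low intensity and, without a detection call, cannot be told from background signal. HLA-E, which presents leader peptides of other class I chains to natural killer cells, differed by -0.08 in its brightest probe set and by -0.34 in the 1 of 6 that passed. HLA-F had 9 tested probe sets between -0.52 and 0.02, of which 1 fell (-0.29). HLA genes are alike in sequence, and most of these probe sets are _s_at or _x_at, so that signal from one gene may appear under another.

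B2M, the light chain shared by all class I molecules, was at 12.22 and 12.07 in the mimic arrays, against 12.32 and 12.38 in the control arrays. The difference of -0.20 ± 0.074 did not pass (adjusted p = 0.0968). All 8 of its probe sets gave differences between -0.20 and -0.14 with no overlap between groups, although 2 of the 8 held identical values and count as 1 measurement. Of all probe sets tested, 33.2% lay apart with the mimic arrays lower. Among the pseudogenes, HLA-V fell by 0.37 (adjusted p = 0.0171), with 3.13 and 3.04 in the mimic arrays and 3.43 and 3.48 in the control arrays. Its 1 probe set lies near the dim level and, without a detection call, cannot be told from background signal. HLA-H differed by -0.30 with groups that touched, and HLA-L was too dim to test.

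**Figure D3:**
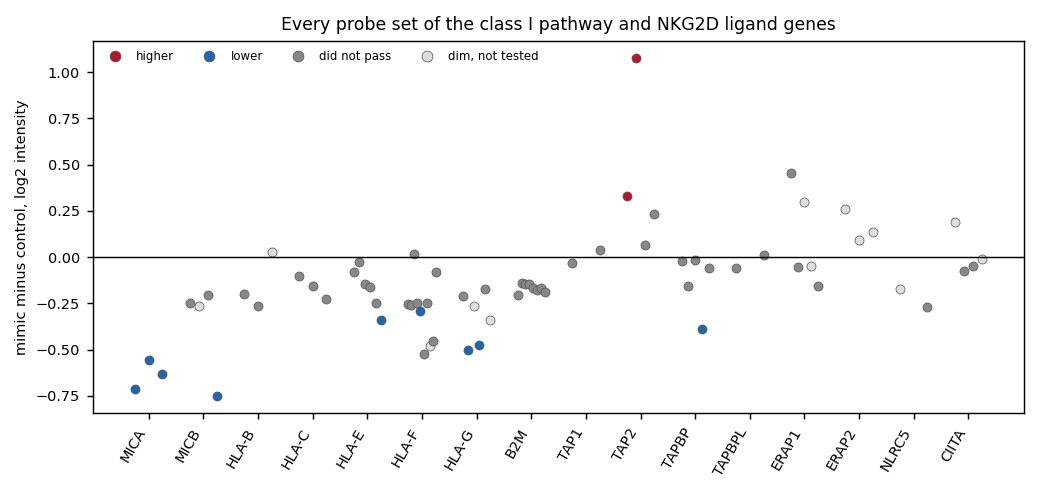
Difference in log2 intensity, mimic minus control, of every probe set of the class I pathway and of MICA and MICB; each point is 1 probe set and its colour gives the call. Points of MICA, MICB and B2M all lie below 0, as do those of HLA-C, HLA-E, HLA-G, TAPBP and NLRC5. Those of TAP2 all lie above 0, up to 1.08, as do the dim, untested points of ERAP2.

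In the peptide loading complex TAP2 rose and its partner TAP1 showed no change that passed. TAP2 was at 8.04 and 8.01 in the mimic arrays, against 7.65 and 7.75 in the control arrays. It rose by 0.33 ± 0.064, 1.26-fold (adjusted p = 0.0219).

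A second TAP2 probe set was at 7.11 and 7.02 in the mimic arrays, against 5.99 and 5.99 in the control arrays. That probe set rose 2.11-fold, by 1.08 ± 0.068 (adjusted p = 0.00183 over 31711 probe sets), and was the only member probe set past 2-fold. The others differed by 0.23 and 0.07 and did not pass. The 4 TAP2 probe sets thus shared a sign and differed widely in size. Which transcripts each one reads was not analysed here.

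TAP1 was at 8.41 and 8.51 in the mimic arrays, against 8.47 and 8.38 in the control arrays, with overlapping groups and a difference of 0.04 (adjusted p = 0.705). TAPBP, which encodes tapasin, the bridge between TAP and the class I chains, differed by -0.06 in its brightest probe set, whereas 1 of 5 fell by 0.39. TAPBPL, a tapasin relative that edits peptides outside the loading complex, differed by -0.06 and did not pass. ERAP1, the aminopeptidase that trims peptides in the endoplasmic reticulum, had tested probe sets between -0.16 and 0.45, none of which passed, and ERAP2 was too dim to test.

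Of the immunoproteasome and PA28 genes all but PSMB8 fell. Of PSMB8, PSMB9, PSMB10, PSME1 and PSME2, 4 fell, against 12.3% of all genes tested. In their brightest probe sets all 5 had both mimic arrays below both control arrays, as had 36.3% of all genes. The median difference of the 5 was -0.24, and in the fit over probe sets 3 of their 13 fell, 2 of PSMB9 and 1 of PSME2. Of the 5 genes, 5 were called lower after a further quantile normalization and 3 after median centring. All 5 differences were below 0 in each case.

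PSMB9 was at 8.55 and 8.53 in the mimic arrays, against 8.85 and 8.83 in the control arrays. It fell by 0.30 ± 0.056, 1.23-fold (adjusted p = 0.0192), and 2 of its 3 probe sets passed. PSMB10 was at 7.53 and 7.52 in the mimic arrays, against 7.75 and 7.79 in the control arrays, and fell by 0.24 ± 0.057 (adjusted p = 0.033), a call lost in 7 of 15 alternative settings. PSMB8 was at 8.37 and 8.40 in the mimic arrays, against 8.55 and 8.51 in the control arrays, and its difference of -0.14 did not pass (adjusted p = 0.117). The other tested PSMB8 probe sets differed by -0.11 and 0.11, with overlapping groups. In the brightest probe set of each of these genes the arrays of a group were within a few hundredths of each other.

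PSME2, the beta subunit of PA28, was at 9.82 and 9.81 in the mimic arrays, against 10.14 and 10.06 in the control arrays. It fell by 0.29 ± 0.061, 1.22-fold (adjusted p = 0.0272). PSME1, the alpha subunit, was at 10.08 and 10.09 in the mimic arrays, against 10.35 and 10.28 in the control arrays. It fell by 0.23 ± 0.060 (adjusted p = 0.0444), a call that was lost in 9 of 15 alternative settings. The other activators did not pass: PSME3, the nuclear PA28 gamma, differed by -0.17, and PSME4, which encodes PA200, had 5 tested probe sets between -0.12 and 0.43.

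Interferon-regulated genes often carry an interferon-stimulated response element. Its core, searched on both strands as GAAA, any 2 bases and GAAA, was in the 250 bases before the start of 9 of 43 member genes with a window, against 3.07% of all 27305. The 9 were B2M, HLA-F, TAP1, TAP2, TAPBP, PSMA4, PSMB4, PSMB10 and PSME2. Among the 11 genes that fell and had a window, 2 held it, PSMB10 and PSME2, and so did TAP2, the gene that rose. The last 150 bases before the start of these 3 are shown for that reason (RefSeq, GRCh38.p14, all minus strand, PSMB10 at chr16:67936851-67937000, PSME2 at chr14:24146611-24146760 and TAP2 at chr6:32838740-32838889), with the core in capitals.
PSMB10: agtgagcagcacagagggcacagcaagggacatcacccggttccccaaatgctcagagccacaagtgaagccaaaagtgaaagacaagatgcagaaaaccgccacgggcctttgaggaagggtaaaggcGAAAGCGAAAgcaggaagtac
PSME2: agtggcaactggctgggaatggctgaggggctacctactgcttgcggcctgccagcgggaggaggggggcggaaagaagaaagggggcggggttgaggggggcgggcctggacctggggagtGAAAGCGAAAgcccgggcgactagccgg
TAP2: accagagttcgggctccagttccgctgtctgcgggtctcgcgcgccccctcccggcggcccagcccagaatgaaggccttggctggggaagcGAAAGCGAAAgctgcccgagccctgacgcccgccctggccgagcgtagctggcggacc

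All 3 hold the same 10 letters, GAAAGCGAAA, in genes that moved in opposite directions. Of the other motifs searched on both strands, the interferon gamma element TTCNNNGAA was in 4 of 43 member windows against 6.78% of all. The antioxidant element core TGACNNNGC was in 7 of 43 against 11.0%, and the heat shock element in 1 of 43 against 0.439%.

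The constitutive core of the proteasome changed little. Of 13 tested PSMA and PSMB genes, 1 fell, 0 rose and 12 did not pass, with differences from -0.29 to 0.15 and a median of -0.11. The groups lay apart with the mimic arrays lower for 8 of the 13, against 36.3% of all genes. After a further quantile normalization 4 of the 13 were lower. PSMA2, an alpha ring subunit, was at 11.43 and 11.38 in the mimic arrays, against 11.64 and 11.74 in the control arrays, and fell by 0.29 ± 0.067 (adjusted p = 0.0336), a call lost in 7 of 15 alternative settings. The remaining alpha genes lay between -0.21 (PSMA1) and 0.00 (PSMA7), and PSMA8, the alpha subunit of germ cells, was too dim to test.

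PSMB5, whose product has the chymotrypsin-like activity and is the subunit that PSMB8 replaces, differed upward. It was at 9.91 and 9.93 in the mimic arrays, against 9.75 and 9.79 in the control arrays, a difference of 0.15 ± 0.057 that did not pass (adjusted p = 0.105). All 5 of its probe sets were higher in the mimic arrays, by 0.12 to 0.34, with no overlap between groups. Of all probe sets tested, 66.6% had no overlap, in either direction. In the fit over probe sets 2 of them rose (0.34 and 0.30, adjusted p = 0.0283 and 0.0347). With _s_at and _x_at probe sets left out PSMB5 passed as higher by 0.30. PSMB6 and PSMB7, whose products hold the other catalytic sites, differed by -0.12 and -0.07 and did not pass, nor did PSMB1, PSMB2, PSMB3 or PSMB4. Of the 3 tested PSMB2 probe sets 1 rose by 0.45 (adjusted p = 0.0414 over probe sets), and the others differed by -0.22 and -0.13 and did not pass. The set that rose is an _x_at set near the dim level, averaging 3.68 in the mimic arrays and 3.23 in the control arrays. The others averaged 9.92 and 8.63 in the mimic arrays. PSMB11, the thymus subunit, was too dim to test.

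**Figure D4:**
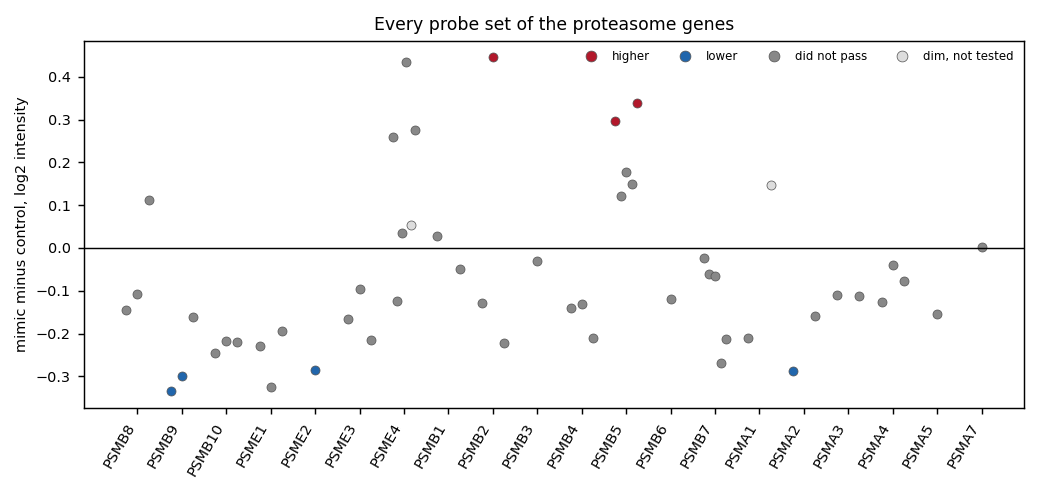
Difference in log2 intensity, mimic minus control, of every probe set of the proteasome genes, with the immunoproteasome and activator genes on the left and the constitutive core on the right; each point is 1 probe set and its colour gives the call. The points of PSMB9, PSMB10, PSME1 and PSME2 all lie below 0 and the 5 points of PSMB5 all above it. All points also lie below 0 for PSME3 and for the core genes PSMA2, PSMA3, PSMA4, PSMA5, PSMB3, PSMB4, PSMB6 and PSMB7.

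Most class II genes were measured at low intensity. Class II molecules are normally made by professional antigen-presenting cells and, under interferon gamma, by epithelial cells. Of 12 class II genes, 8 were above the dim level, of which 2 fell and 0 rose, with a median difference of -0.22. Among all genes tested 12.3% fell and 17.7% rose, with a median of -0.02. In the dimmest of 4 equal bands of genes by mean level, 12.7% fell and 6.03% rose, with a median of -0.11. HLA-DQB1 was at 4.28 and 4.26 in the mimic arrays, against 4.67 and 4.61 in the control arrays, and fell by 0.37 ± 0.060 (adjusted p = 0.0135). Of its 5 tested probe sets 2 fell, and the others differed by -0.20 to -0.12. With the median probe set the difference was -0.12 and did not pass (adjusted p = 0.629). HLA-DRB1 was at 3.67 and 3.96 in the mimic arrays, against 4.21 and 4.21 in the control arrays, and fell by 0.39 ± 0.11 (adjusted p = 0.0474). That call was lost in 7 of 13 alternative settings, and its 1 probe set did not pass in the fit over probe sets (adjusted p = 0.0585). Without a detection call neither can be told from background signal.

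HLA-DPA1, HLA-DPB1, HLA-DMB, HLA-DQA1, HLA-DRB4 and HLA-DOA did not pass, with differences from -0.29 to 0.05. The brightest of them, HLA-DPB1, was at 6.37 and 6.42 in the mimic arrays, against 6.44 and 6.75 in the control arrays. Its next brightest probe set averaged 3.74 in the mimic arrays and 3.89 in the control arrays. HLA-DRA, HLA-DMA, HLA-DOB and HLA-DRB5 were too dim to test, as was the pseudogene HLA-DPB2. CD74, the invariant chain that guards the class II groove, was at 4.10 and 4.12 in the mimic arrays, against 4.16 and 3.89 in the control arrays, with overlapping groups. Among 12 leukocyte marker genes with a probe set, 8 were above the dim level, and PTPRC, the common leukocyte antigen CD45, averaged 1.36 and LYZ 1.70, both below it. Of the 8, CD14 (0.53) and CD68 (0.34) rose, and TYROBP (-0.45) and CD79A (-0.27) fell. The list's mean was 4.47 and 4.45 in the mimic arrays, against 4.52 and 4.50 in the control arrays, and its part in the class II differences was not tested. Of 6 epithelial markers, all above the dim level, KRT14 rose by 1.15 and KRT5 by 0.48, and the others, CDH1 among them, did not pass.

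The transactivators did not pass. NLRC5, which drives class I, B2M and TAP1 transcription, was at 3.96 and 3.94 in the mimic arrays, against 4.39 and 4.06 in the control arrays. The difference of -0.27 came with a spread of 0.23 (SD) between the control arrays (adjusted p = 0.139). CIITA, its class II counterpart, was at 5.38 and 5.27 in the mimic arrays, against 5.23 and 5.52 in the control arrays, with overlapping groups and a difference of -0.05 (adjusted p = 0.764).

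One member was caught by its symbol alone. PSME3IP1 encodes a partner protein of PSME3 and no proteasome subunit. Its difference of 0.23 did not pass (adjusted p = 0.058), and 1 of its 3 probe sets rose in the fit over probe sets.

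Genes of the pathway outside the member list included more that rose than fell, as did all genes tested. Of 82 genes in 9 lists, 71 were tested, of which 15 rose, 3 fell and 53 missed the threshold. Their median was 0.09. After a further quantile normalization, 10 were higher and 11 lower. All 7 genes of a list named for class I folding in the endoplasmic reticulum had higher means in the mimic arrays, and 4 rose (2 after that normalization, with all 7 still above 0). Among these, UGGT1, the glucosyltransferase that checks glycoprotein folding, rose by 0.47 (adjusted p = 0.00756). CANX, the chaperone calnexin that holds new heavy chains, was at 11.67 and 11.69 in the mimic arrays, against 11.31 and 11.34 in the control arrays, and rose by 0.35. HSPA5, the chaperone BiP, rose by 0.22. The fourth, SPPL3, encodes an intramembrane protease and no folding factor. It rose by 0.33 in its brightest probe set, and its 3 probe sets spanned -0.08 to 0.33.

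The class II processing and RFX-NFY list had 4 genes higher and 1 lower of 13. RFXAP, a subunit of the RFX complex that binds class I and class II promoters, was at 5.51 and 5.40 in the mimic arrays, against 4.49 and 4.44 in the control arrays. It rose 1.99-fold (adjusted p = 0.00172), on 1 probe set. Of the CCAAT-binding NF-Y subunits, NFYC fell by 0.57 (adjusted p = 0.00652), with 5 of its 6 probe sets above the dim level of that sign, and NFYB rose by 0.28. The lysosomal protease gene CTSB rose by 0.44 and IFI30, the lysosomal thiol reductase, by 0.34.

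The 19S cap, which feeds proteins into the core, had 1 of 19 tested genes higher, the deubiquitinase gene UCHL5 (0.47), and 0 lower. Among 10 assembly and control genes ECPAS rose by 0.50 and the chaperone gene PSMG2 by 0.24, and PAAF1 fell by 0.31. Of the cytosolic peptidases NPEPPS fell by 0.33, the 1 call among 6 genes. In the interferon gamma axis IRF2 rose by 0.29 and PTPN2 by 0.25, the 2 calls among 8 genes. IRF1, an activator of many class I pathway genes, was at 6.69 and 6.67 in the mimic arrays, against 6.61 and 6.75 in the control arrays, with a difference of 0.00 in its brightest probe set. Its 4 probe sets spanned -0.42 to 0.00, and 1 of them was above 0. None of 5 other class I-like genes passed, with differences from -0.01 to 0.33.

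Of 37 tested interferon-response genes that are not members, 10 fell and 1 rose, against 12.3% lower and 17.7% higher among all genes. The median difference was -0.57. Their mean log2 level was 5.92 and 5.81 in the mimic arrays, against 6.86 and 6.17 in the control arrays. Control array 1 was thus well above control array 2 in that list. The 5 immunoproteasome and PA28 genes averaged 8.87 and 8.87 in the mimic arrays, against 9.13 and 9.09 in the control arrays. The 6 class I chains averaged 8.44 and 8.38 in the mimic arrays, against 8.66 and 8.62 in the control arrays. That mean covers chains that differed between the control arrays in opposite directions. Control array 1 was above control array 2 for HLA-F (7.01 and 6.62), HLA-B and HLA-E. It was below control array 2 for HLA-G (5.01 and 5.20), HLA-C and B2M. MICA and MICB averaged 7.11 and 7.22 in the mimic arrays, against 7.88 and 7.92 in the control arrays. The part of the interferon response in these differences was not tested. Without control array 1 the differences of the 12 genes that fell were between -0.76 and -0.19, and without control array 2 between -0.75 and -0.23.

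**Figure D5:**
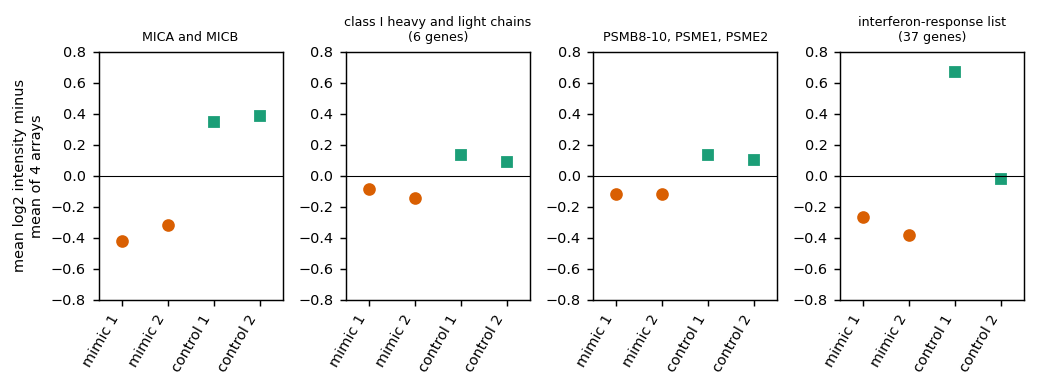
Mean log2 intensity of 4 gene groups in each array, minus that group's mean over the 4 arrays; circles are mimic arrays and squares control arrays. The means of the 2 control arrays lie close together for MICA and MICB, the class I chains and the immunoproteasome with PA28. They lie apart for the interferon-response list (6.86 and 6.17 before centring). Single genes within a mean can differ more, as HLA-F does among the class I chains (7.01 and 6.62).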

How the data were processed

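Total RNA (2 µg per array) was labelled per the labels' protocols. The values were 1 intensity per probe set and array, made by the authors with RMA per the submitters' processing notes and deposited on a linear scale. Its version and options are not given. Log2 was taken, and 4 arrays limit the precision. Of 49293 probe sets, 44988 had 1 gene symbol in the annotation provided, 1832 several and 2473 none. Symbols were updated by gene identifier to GRCh38.p14, which changed 0 member symbols. Probe sets in the lowest 30% by mean (below 2.83) were left out.

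Differences were fitted in R 4.3.3 with limma 3.58.1 (lmFit, then eBayes; two-sided, no block), and p-values adjusted by Benjamini-Hochberg were called under 0.05. This was run over 14340 genes (the brightest probe set of each) and over 31711 probe sets, and checked on simulated data. With 2 arrays a group, the smallest two-sided p of an exact permutation test is 0.333. Array values were given for members past the threshold and 15 fixed genes. Outside genes named were up to 4 per list with the largest difference past the threshold, with IRF1 always named; ULBP2, the other class I-like genes' range and the probe sets of several symbols were chosen after their values were seen. Array values of CANX, ULBP3, RAET1G and RFXAP were added likewise. The members and lists were chosen with earlier results of these data known. Promoter windows and microRNA sequences came from RefSeq (GRCh38.p14), using the first window listed for a gene. Windows were aligned with Biopython 1.88.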

Additional observations from a re-analysis of the deposited data

How the results depend on the processing

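With 2 arrays a group, the calls rest on small spreads. The counts as reported were 1 member gene higher and 12 lower, 6 member probe sets higher and 17 lower, and 15 pathway genes higher and 3 lower. Leaving out 1 array gave 0 to 0 member genes higher and 0 to 1 lower, 0 to 0 member probe sets in either direction, 0 to 1 pathway genes higher and 0 to 0 lower, and 0 to 796 of all genes higher and 0 to 167 lower; 9 to 17 member genes and 17 to 34 member probe sets were lower at an unadjusted p under 0.05. Member genes higher numbered 2 with median centring, with the lowest 50% of probe sets left out and without _s_at and _x_at probe sets, and 3 with log2(value + 16), an intensity trend in the prior or the mean of a gene's probe sets. Member genes lower numbered 7 with no dim filter, 5 without _s_at and _x_at probe sets or with the median probe set per gene, and 19 with the trend. Member probe sets were 3 higher and 29 lower after quantile normalization on top, 2 and 10 with no dim filter, 10 and 26 with log2(value + 16), and 11 and 38 with the trend, and 4 lower without _s_at and _x_at probe sets. At 2-fold or more 0 member genes remained in either direction, and 1 probe set higher and 0 lower. Pathway genes lower numbered 11 after quantile normalization, 5 with the lowest 50% left out, and 7 with log2(value + 16) or the trend. With the median probe set per gene 1661 of all genes were higher and 861 lower.

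The replicate number as a block left 0 member genes higher and 5 lower, 2 member probe sets higher and 5 lower, and 979 of all genes lower. The labels do not say that the numbers pair arrays, and the differences between replicates 1 and 2 of the 2 groups correlated at -0.001 across genes. Single genes were followed across settings only if they were past the threshold or among the fixed genes. Among the fixed genes that did not pass, the sign turned for CD74, CIITA and TAP1. CD74 ran from -0.056 to 0.221 on leaving out 1 array, lowest without control replicate 2. It was at -0.071 with the mean of its probe sets and -0.28 with its median probe set. CIITA ran from -0.189 to 0.093 on leaving out 1 array, above 0 without mimic replicate 2 or control replicate 2. TAP1 was at -0.054 after quantile normalization and -0.030 with its median probe set. On leaving out 1 array TAP1 ran from -0.012 to 0.086, below 0 without mimic replicate 2 or control replicate 2. No sign turned among the 13 genes past the threshold in any setting. Their groups of arrays did not overlap, so leaving out 1 array could not turn a sign. A block or another prior leaves the difference unchanged. The cause of the moves between settings was not tested.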

Other observations

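A further 11 probe sets carried several gene symbols of which 1 or more was a member's, and were left out of the counts. Of these, 7 were below the dim level and 0 of the remaining 4 passed in limma's fit over all probe sets, whether higher or lower. The probe set shared by PSMA6, an alpha ring subunit, and PRORP was at 11.84 and 11.93 in the mimic arrays, against 11.93 and 11.99 in the control arrays, with a difference of -0.07. The 1 of these probe sets that named HLA-B with HLA-C was dim, at 1.67 and 1.62 in the mimic arrays, against 1.96 and 1.97 in the control arrays. Of the 47 tested members, 26 lay in the brightest of 4 equal bands of genes by mean level, where 20.2% of all genes were higher and 10.7% lower. In the dimmest band, which held 8 of them, 6.03% of all genes were higher and 12.7% lower, with a median difference of -0.11.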
